A study of Homo sapiens with 14 samples.

Results

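The libraries described here are the 2 replicates labelled CX-5461 120 min and the 2 control replicates, which are 4 of the 14 libraries of the series. They were chosen by their sample labels, and the treated pair carries the token 30 in its file names, so whether these cells were exposed for 120 or 30 min cannot be told apart here; times below are those of the labels. All libraries come from MDA-MB-231, an established human triple-negative breast cancer cell line, and hold poly(A) RNA in KAPA stranded libraries. The treated cells received 5 µM CX-5461, whereas the control is given no compound by its labels and is called untreated or DMSO-treated in different places of the study. The other libraries, 2 replicates each, are cells given 5 µM CX-5461 or the second inhibitor, RBI2, with labels of 10, 30 or 120 min. No source says that replicates were separate cultures, so p-values measure the spread between these libraries, which may be technical. The comparison asks which messenger RNAs differ after the longest labelled exposure to CX-5461.

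CX-5461 blocks transcription of the ribosomal RNA genes by RNA polymerase I (Pol I), the first step in building ribosomes. It is also known to stabilise G-quadruplexes, folded DNA structures formed by runs of guanine, and to trap topoisomerase II on DNA. Short exposures of cells to many agents change immediate early genes first, whose RNAs are short-lived and whose promoters respond to kinase signalling.

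The promoters of ID2 and GADD45B are shown because both genes rose in this comparison and both promoters hold a G-quadruplex pattern, which was searched as 4 runs of at least 3 G separated by 1 to 7 bases, on either strand. They are given in RefSeq's GRCh38.p14, from 250 bases before to 50 bases after the start, on the + strand. Capitals mark the pattern, which is read as runs of C here because it lies on the opposite strand, and in GADD45B also an E-box (CACGTG).
ID2, chr2:8681806-8682105: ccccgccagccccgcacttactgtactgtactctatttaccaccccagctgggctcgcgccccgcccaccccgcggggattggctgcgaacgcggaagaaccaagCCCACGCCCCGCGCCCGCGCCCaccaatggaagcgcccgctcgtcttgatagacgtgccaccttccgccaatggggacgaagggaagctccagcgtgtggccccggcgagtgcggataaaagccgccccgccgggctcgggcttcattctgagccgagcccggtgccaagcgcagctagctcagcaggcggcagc
GADD45B, chr19:2475877-2476176: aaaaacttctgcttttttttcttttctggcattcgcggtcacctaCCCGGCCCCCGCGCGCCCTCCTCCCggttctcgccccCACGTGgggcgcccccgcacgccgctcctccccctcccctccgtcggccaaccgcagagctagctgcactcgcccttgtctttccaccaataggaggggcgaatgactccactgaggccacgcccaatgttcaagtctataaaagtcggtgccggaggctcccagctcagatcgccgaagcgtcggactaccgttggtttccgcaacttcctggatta
Of the 12 genes past the test below, the promoters of 8 were read. The promoters of MYC, CCN1, ENSG00000262526 and ENSG00000274422 were not read. Whether these hold a G-quadruplex pattern or another motif was not tested, so the counts given here are incomplete for the 12 genes. The G-quadruplex pattern was held by 2 of the 8, against 25% of all 35116 promoters. The E-box was found in 1 of the 8 (7.26% of all promoters), the AP-1 motif TGANTCA in 1 of the 8, that of GABPB1-AS1 (7.71%), and the cyclic AMP response element TGACGTCA and the CArG box in 0 of the 8 (1.85% and 1.29%). A match describes letters only and is not a bound site.

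The host RNA MIR222HG, which fell, spans the microRNAs miR-221 and miR-222, known for their role in proliferation. Their 3p arms share bases 2 to 8, the seed that pairs with target RNAs, which is in capitals.
hsa-miR-221-3p, chrX:45746180-45746202: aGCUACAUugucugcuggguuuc
hsa-miR-222-3p, chrX:45747036-45747056: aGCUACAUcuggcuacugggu
Both lie on the - strand, and the sequences and positions are from RefSeq (GRCh38.p14). The mature microRNAs themselves were not measured in these libraries.

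Few genes differed between CX-5461 labelled 120 min and the control. Of 15426 genes tested with edgeR's quasi-likelihood test on all 14 libraries, 12 had an adjusted p under 0.05, which is 0.0778%. Of these, 5 were higher (0.0324%) and 7 lower (0.0454%) in the treated cells. With the further limit of a log2 fold change of 1 or more in either direction, 7 genes were called (0.0454%), 4 higher (0.0259%) and 3 lower (0.0194%). The genes that rose were ID2, WDR4, FOS, GADD45B and the unnamed gene ENSG00000262526. The genes that fell were MIR222HG, CLK1, GABPB1-AS1, SNHG3, MYC, CCN1 and the unnamed gene ENSG00000274422. When the p-value was left unadjusted and the fold limit kept, 289 genes passed (1.87%), 78 higher (0.506%) and 211 lower (1.37%). Both treated libraries lay outside both control libraries for 5101 genes (33.1%), so non-overlap alone is a weak criterion here.

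Library totals lay between 14112299 and 24849354 estimated reads, and the treated pair held 24849354 and 18078318 against 16020768 and 14811266 in the control. Control replicate 2 stood apart: mitochondrial genes held 20.6% of its reads, against 9.55% in control replicate 1 and 8.14% to 11.3% in the other libraries. The control replicates differed by more than 2-fold for 1453 genes, against 491 for the treated pair and 488 to 675 for the other pairs. Of the markers of the cell line, all 7 were tested, and VIM, the intermediate filament of mesenchymal cells, had 3052 to 3387 CPM (reads per library scaled by TMM to a common total) in the 4 libraries. Of 6 luminal or epithelial markers, ESR1, PGR, FOXA1 and CDH1 had at most 6 reads in any library, EPCAM had 10.6 to 12 CPM and GATA3 4.81 to 6.55 CPM. Of 8 markers of blood, vessel, liver and glial cells, 7 had at most 7 reads in any library, and GFAP had 3.59 to 5.41 CPM. The reference gene GAPDH had 3373 and 2913 CPM in the control and 3220 and 2971 CPM in the treated cells, and its groups overlapped (log2 fold change -0.02).

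**Figure D1:**
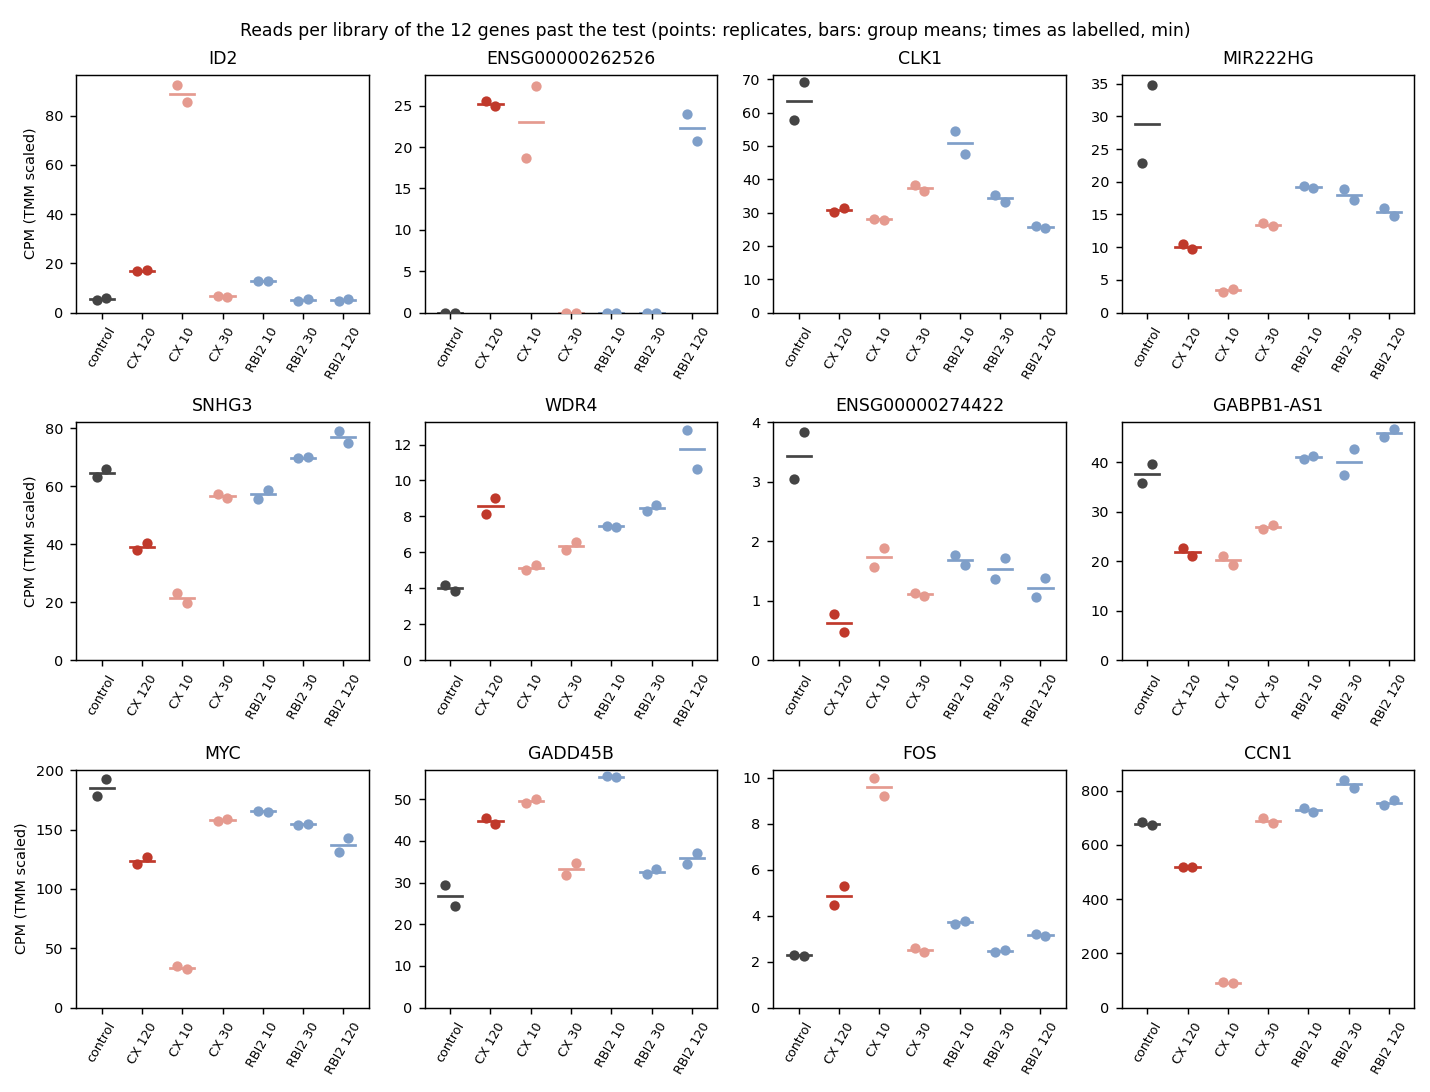
Reads of the 12 genes past the test in each of the 14 libraries, in CPM on linear axes from 0, with points for replicates and bars for group means; CX stands for CX-5461 and times are those of the labels in min. The treated pair (dark red, beside the control in grey) lies outside the control pair for every gene, and ID2, at 16.8 and 17.2 CPM, lies far under the 2 libraries of CX-5461 labelled 10 min.

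ID2 encodes an inhibitor of DNA binding, a helix-loop-helix protein that holds back differentiation factors and is a direct target of BMP signalling. The gene (ENSG00000115738, chr2:8678845-8684461 of GRCh38, + strand) had 5.28 and 5.91 CPM in the control and 16.8 and 17.2 CPM in the treated cells. The means were 5.6 ± 0.444 and 17.0 ± 0.268 CPM (SD, n = 2), a log2 fold change of 1.61 with a standard error of 0.115 (edgeR, adjusted p = 0.000598). Most of its reads, 88.0%, were assigned to the coding transcript ID2-203, at 5.28 and 5.91 CPM in the control and 14.6 and 14.4 CPM in the treated cells. The retained-intron transcript ID2-204 had 0 CPM in both control libraries and 2.0 and 2.67 CPM in the treated ones. ID2 passed the adjusted p with each of the 14 libraries left out in turn, with log2 fold changes of 1.52 to 1.66.

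FOS, an immediate early gene whose protein forms the AP-1 factor with JUN, had the lowest level of the named genes that rose. It (ENSG00000170345, chr14:75278826-75282230) had 2.30 and 2.24 CPM in the control and 4.48 and 5.27 CPM in the treated cells, a log2 fold change of 1.10 (standard error 0.150; edgeR, adjusted p = 0.0259). These values rest on 65 reads in the control pair and 201 in the treated pair. FOS did not pass with the replicate number as a block. Its result is fragile: it passed the adjusted p in 2 of the 14 fits that leave out a library and did not without control replicate 2 (adjusted p = 0.10), and with an offset for transcript length the log2 fold change was 0.56.

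GADD45B, a stress-induced gene of the growth arrest and DNA damage family that acts on MAP kinase signalling, had 29.4 and 24.3 CPM in the control. In the treated cells it (ENSG00000099860, chr19:2476122-2478259) had 45.4 and 44.2 CPM, and its log2 fold change was 0.74 (standard error 0.0980; edgeR, adjusted p = 0.0232). It passed the adjusted p in 3 of the 14 fits that leave out a library, and without control replicate 2 its log2 fold change was 0.58. It did not pass with the length offset (0.71, adjusted p = 0.127) or with the replicate number as a block.

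WDR4, which encodes the partner subunit of the enzyme that methylates guanosine in transfer RNA, had 4.16 and 3.83 CPM in the control and 8.11 and 9.04 CPM in the treated cells. The log2 fold change of the gene (ENSG00000160193, chr21:42843094-42879568) was 1.09 (standard error 0.133; edgeR, adjusted p = 0.0139). Its reads were assigned mainly, 51.3% and 40.3%, to the transcripts WDR4-205, which has no defined coding sequence, and WDR4-201, which is coding. WDR4-205 had 1.73 and 2.21 CPM in the control and 5.00 and 3.65 CPM in the treated cells, while WDR4-201 had 2.43 and 1.5 CPM against 2.97 and 3.40 CPM. WDR4 passed the adjusted p in 10 of the 14 fits that leave out a library. Its adjusted p was 0.0568 without control replicate 2, 0.0649 and 0.217 without treated replicate 1 or 2, and 0.0504 without RBI2 labelled 10 min replicate 2. The length offset, which corrects for differing transcript use, gave it a log2 fold change of 0.85 and an adjusted p of 0.202.

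ENSG00000262526 (chr17:7240427-7244635, - strand) had 0 reads in both control libraries and 25.6 and 25.0 CPM in the treated cells. Counting 3 reads over the control group, it was at least 241-fold higher (edgeR, adjusted p = 0.00218). All of its reads were assigned to 1 transcript, ENST00000570760, of the nonsense-mediated decay class, whose exons share their strand and bases with CTDNEP1 and GABARAP, which makes its count uncertain. It was at 0 as well in both libraries of CX-5461 labelled 30 min and in all 4 of RBI2 labelled 10 or 30 min, against 18.7 and 27.4 CPM in CX-5461 labelled 10 min and 24.0 and 20.7 CPM in RBI2 labelled 120 min. The gene was thus at 0 in both replicates of a group or at 18.7 CPM or more in both, and the part of how Salmon divided the shared reads was not tested.

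Among the genes past the test and above 5 CPM, the largest fall by fold was that of MIR222HG (ENSG00000270069, chrX:45745210-45770274), the host RNA of the microRNAs printed above. It had 22.8 and 34.8 CPM in the control and 10.5 and 9.68 CPM in the treated cells. The control replicates differ from each other, but both lie above both treated libraries. The log2 fold change was -1.51 (standard error 0.169; edgeR, adjusted p = 0.0119), and it was -1.18 against control replicate 1 alone and -1.79 against control replicate 2 alone. Its exons overlap MIR221 on the same strand, and 99.8% of its reads were assigned to the transcript MIR222HG-201. Its adjusted p was 0.0923 and 0.172 without treated replicate 1 or 2, and it passed in the other 12 fits that leave out a library.

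CLK1 encodes a kinase that phosphorylates SR splicing factors, and its own transcript is known to be held in the nucleus with introns retained. The gene (ENSG00000013441, chr2:200853009-200864691) had 57.7 and 69.3 CPM in the control and 30.2 and 31.5 CPM in the treated cells, a log2 fold change of -1.04 (standard error 0.104; edgeR, adjusted p = 0.0051). The coding transcript CLK1-201 had 29.3 and 46.7 CPM in the control and 14.2 and 13.9 CPM in the treated cells. The retained-intron transcript CLK1-210 had 11.8 and 17.7 CPM against 2.76 and 5.61 CPM. These 2 transcripts, which hold 53.4% and 18.7% of its reads, were lower in both treated libraries than in either control library. The other transcripts did not follow. The coding transcript CLK1-203 had 6.82 and 0 CPM against 5.72 and 3.39 CPM, the retained-intron transcript CLK1-207 had 3.70 and 4.13 CPM against 2.38 and 3.74 CPM, and CLK1-204, of the nonsense-mediated decay class, had 0 CPM in both control libraries and 3.89 and 4.81 CPM in the treated ones. The gene's adjusted p was 0.0649 and 0.0545 without treated replicate 1 or 2 and 0.202 with the length offset, and it passed the adjusted p in the other 12 fits that leave out a library, with a log2 fold change of -0.93, short of the fold limit, without control replicate 2.

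SNHG3, a host gene of small nucleolar RNAs, had 63.2 and 65.9 CPM in the control and 38.1 and 40.2 CPM in the treated cells. The log2 fold change of the gene (ENSG00000242125, chr1:28505980-28510892) was -0.72 (standard error 0.0875; edgeR, adjusted p = 0.0139). Exons of RCC1 and SNORA73A overlap it in the same orientation, which makes part of its count uncertain. The 2 main transcripts were both lower: SNHG3-201 had 39.6 and 44.3 CPM in the control and 27.2 and 26.2 CPM in the treated cells, and the retained-intron transcript SNHG3-202 had 23.6 and 21.4 CPM against 10.9 and 14 CPM. SNHG3 passed the adjusted p in 10 of the 14 fits that leave out a library, with adjusted p of 0.173 and 0.172 without treated replicate 1 or 2 and of 0.0504 and 0.0533 without replicate 2 of RBI2 labelled 10 or 30 min, and it was 0.109 with the length offset.

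GABPB1-AS1, a long non-coding RNA transcribed opposite to GABPB1, had 35.7 and 39.6 CPM in the control and 22.7 and 21 CPM in the treated cells. The log2 fold change of the gene (ENSG00000244879, chr15:50354944-50372202) was -0.78 (standard error 0.0974; edgeR, adjusted p = 0.0139). Its exons overlap MIR4712 on the same strand. Another non-coding RNA, ENSG00000274422 (chr22:22283928-22287220), had 3.05 and 3.83 CPM in the control and 0.774 and 0.464 CPM in the treated cells, a log2 fold change of -2.42 (edgeR, adjusted p = 0.0139). It rests on 97 reads in the control pair and 27 in the treated pair. Both RNAs passed the adjusted p in 11 of the 14 fits that leave out a library. Without treated replicate 1 or 2 and without RBI2 labelled 10 min replicate 2, the adjusted p was 0.0943, 0.247 and 0.0566 for GABPB1-AS1 and 0.0649, 0.204 and 0.0504 for ENSG00000274422, and with the length offset it was 0.109 for each. Of the 12 genes, it is the only one for which both treated libraries lay outside all 12 others.

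MYC, the growth factor-responsive transcription factor that drives ribosome biogenesis, had 178 and 193 CPM in the control and 121 and 127 CPM in the treated cells. The log2 fold change of the gene (ENSG00000136997, chr8:127735434-127742951) was -0.58 (standard error 0.0726; edgeR, adjusted p = 0.0139). MYC passed the adjusted p in 10 of the 14 fits that leave out a library. Its adjusted p was 0.185 and 0.172 without treated replicate 1 or 2, 0.0608 and 0.0650 without replicate 2 of RBI2 labelled 10 or 30 min, and 0.109 with the length offset. CCN1, a secreted matrix protein and target of YAP, showed a smaller fall measured on many reads, 19447 in the control pair and 21700 in the treated pair. The gene (ENSG00000142871, chr1:85580761-85584589) had 685 and 673 CPM in the control and 520 and 518 CPM in the treated cells, a log2 fold change of -0.39 (standard error 0.0565; edgeR, adjusted p = 0.0432). CCN1 passed the adjusted p in 2 of the 14 fits that leave out a library and did not with the length offset (log2 fold change -0.31, adjusted p = 0.221). With the replicate number as a block CCN1 did not pass either. The division of its reads between transcripts differed between the control replicates: the nonsense-mediated decay transcript CCN1-205 had 345 CPM in control replicate 1 and 0 CPM in replicate 2, against 220 and 202 CPM in the treated pair, so the sum over the gene is the value to compare.

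Since control replicate 2 stood apart, each gene was also set against each control library. Against replicate 1 and replicate 2 respectively, the mean of the treated pair differed on the log2 scale by 1.69 and 1.53 for ID2, by 1.04 and 1.16 for WDR4, by 1.08 and 1.12 for FOS and by 0.61 and 0.88 for GADD45B. These 4 genes were higher than either control library. The values were -0.90 and -1.17 for CLK1, -0.69 and -0.75 for SNHG3, -0.71 and -0.86 for GABPB1-AS1, -0.53 and -0.64 for MYC, -0.40 and -0.38 for CCN1 and -2.30 and -2.63 for ENSG00000274422. The 12 genes therefore keep their direction against each control library alone. With control replicate 2 left out of the model, 10 of the 12 still passed, among 17 genes in all, and the exceptions were WDR4 and FOS. With control replicate 1 left out, all 12 passed, but among 3500 genes, and 186 members of the lists described below passed in place of 6.

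**Figure D2:**
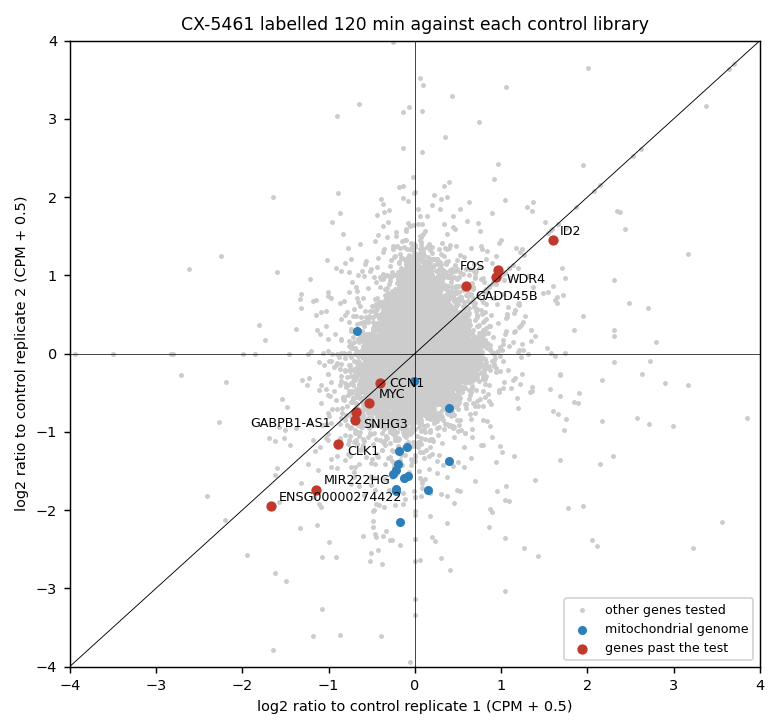
Each gene tested is a point, with the log2 ratio of the treated mean to control replicate 1 on the x axis and to control replicate 2 on the y axis (CPM plus 0.5), and 28 genes beyond 4 on either axis, ENSG00000262526 among them, are not shown. The genes past the test (red) lie near the diagonal, ID2 at the upper right and ENSG00000274422 at the lower left, whereas most mitochondrial genes (blue) lie low on the y axis only.

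Of the 23 immediate early genes tested with edgeR on all libraries, FOS rose, MYC fell and the others did not pass. Their median log2 fold change was 0.34, against 0.06 over all genes tested, and it was 0.23 without control replicate 1 and 0.13 without control replicate 2. Both treated libraries lay above both control libraries for 12 of the 23 genes and below for 5, against 19.4% and 13.7% of all genes tested. At an unadjusted p under 0.05 there were 15 of the 23, 11 higher and 4 lower, against 12.4% of all genes tested, which is also the share to set beside each count of this kind below. Members that did not pass, here and in the lists below, were named after their values were seen. JUN, the partner of FOS in AP-1, had 113 and 102 CPM in the control and 78.5 and 78.9 CPM in the treated cells (log2 fold change -0.45; edgeR, adjusted p = 0.0819). The log2 fold change of JUN was -0.37 without control replicate 1 and -0.54 without control replicate 2. DUSP1, a phosphatase that turns off MAP kinases, had 35.4 and 32.9 CPM against 25.1 and 24.7 CPM (-0.46, adjusted p = 0.167). ZFP36, which promotes the decay of AU-rich mRNAs, had 10.8 and 12.1 CPM against 19.4 and 17.1 CPM (0.68, adjusted p = 0.230). With DESeq2 and the same filter, JUN and DUSP1 passed together with FOS and MYC (adjusted p = 0.000145 and 0.00851). In that fit 89 of all 15426 genes tested passed.

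ID2 was the only one of 10 BMP and TGF-beta targets to pass (5 at an unadjusted p under 0.05, 4 of them higher), and the median of the list was 0.30. Its relatives did not pass on all libraries. ID1 had 157 and 101 CPM in the control and 102 and 96.1 CPM in the treated cells (log2 fold change -0.38; edgeR, adjusted p = 0.385), and ID3 had 70.7 and 47.9 CPM against 64.1 and 58.8 CPM (0.05, adjusted p = 0.918). Each passed without 1 control library: ID1 was lower without control replicate 2 (-0.68, adjusted p = 0.0496) and ID3 higher without control replicate 1 (0.36, adjusted p = 0.0470). SMAD6, an inhibitor within the pathway, had 1.68 and 1.60 CPM against 2.89 and 2.78 CPM (0.79, adjusted p = 0.293). Among 8 Notch targets 0 passed with edgeR or DESeq2 (3 at an unadjusted p under 0.05), and the median was 0.37. HES1, the classical Notch-induced repressor, had 22.1 and 17.9 CPM against 29.7 and 28.1 CPM (0.53, adjusted p = 0.265).

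CCN1 was the only one of 22 YAP targets to pass (4 at an unadjusted p under 0.05, 2 in each direction), and the median of that list was 0.02. CCN2, its close relative, had 598 and 647 CPM in the control and 573 and 600 CPM in the treated cells, with overlapping groups (log2 fold change -0.09). ANKRD1, another standard YAP target, had 476 and 474 CPM against 473 and 454 CPM (-0.03). Of 17 genes of MAP kinase feedback 0 passed with edgeR (6 at an unadjusted p under 0.05), at a median of -0.10. DUSP6, which removes phosphate from ERK, had 145 and 160 CPM against 119 and 123 CPM (-0.33; edgeR, adjusted p = 0.265). With DESeq2 and the same filter DUSP6, DUSP4 and PHLDA1 passed, among 89 of all 15426 genes tested.

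CLK1 was the only one of 18 splicing kinases and SR factors to pass (6 at an unadjusted p under 0.05, 4 of them lower), and the median of the list was -0.03. The other kinases of the family were lower in both treated libraries than in either control without passing the test, as were 13.7% of all genes tested. CLK4 had 13.2 and 17.3 CPM in the control and 11 and 11.7 CPM in the treated cells (log2 fold change -0.42; edgeR, adjusted p = 0.296). CLK2 and CLK3 had log2 fold changes of -0.28 and -0.26. All 3 passed without control replicate 1, among 3500 genes, and none did without control replicate 2.

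**Figure D3:**
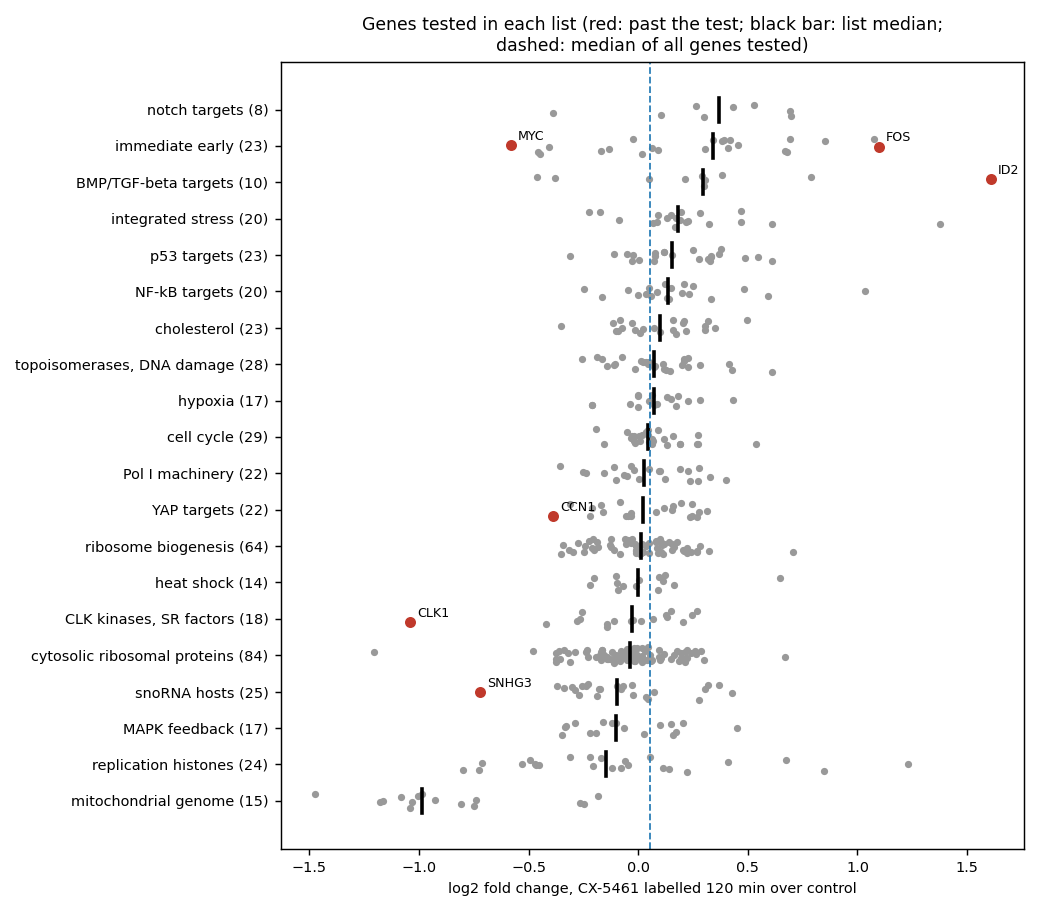
Log2 fold change of CX-5461 labelled 120 min over the control for each gene tested of 20 lists, with the number tested in brackets, a black bar for the list's median and a dashed line for the median of all genes tested (0.06). The 6 list members past the test (FOS, MYC, ID2, CCN1, CLK1 and SNHG3) are in red, and the mitochondrial genome lies lowest, at a median of -0.99.

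Genes of the ribosome pathway were measured by several lists, since ribosomal RNA synthesis is the target of CX-5461. Of 22 genes of the Pol I machinery 0 passed with edgeR (6 at an unadjusted p under 0.05, 3 in each direction), and their log2 fold changes lay between -0.36 and 0.40 with a median of 0.03. POLR1A, the largest subunit of Pol I, had 189 and 215 CPM in the control and 215 and 259 CPM in the treated cells (0.24, adjusted p = 0.474). UBTF, the upstream binding factor of the ribosomal RNA promoter, had 111 and 119 CPM against 109 and 111 CPM (-0.07, adjusted p = 0.679). TAF1D, a subunit of the selectivity factor, had 238 and 256 CPM against 211 and 208 CPM (-0.24, adjusted p = 0.280) and passed with DESeq2 (adjusted p = 0.00692).

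Among 64 genes of ribosome biogenesis 0 passed with edgeR (14 at an unadjusted p under 0.05), 1 passed with DESeq2, and the median was 0.01. NAT10, which acetylates ribosomal RNA, had 98.6 and 71.6 CPM in the control and 118 and 160 CPM in the treated cells (log2 fold change 0.70; edgeR, adjusted p = 0.265). Of 84 genes of cytosolic ribosomal proteins and their paralogues 0 passed with edgeR (20 at an unadjusted p under 0.05, 19 of them lower), at a median of -0.04. With DESeq2 and the same filter 6 passed, all lower, while 89 of all 15426 genes tested passed, 23 of these higher. For 23 of the 84 (27.4%) both treated libraries lay below both control libraries, against 13.7% of all genes, and for 1 they lay above. The direction of this median depends on the control library: it was 0.10 without control replicate 1 and -0.19 without control replicate 2. RPL9 had 412 and 443 CPM against 340 and 327 CPM (-0.36, adjusted p = 0.230). Of the 25 host genes of small nucleolar RNAs SNHG3 passed (5 at an unadjusted p under 0.05, all lower), and the median was -0.10. GAS5, a host whose RNA is degraded when it is translated, had 201 and 190 CPM against 156 and 146 CPM (-0.37, adjusted p = 0.230), and it passed with DESeq2 (adjusted p = 0.00249).

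No member of the lists of stress and DNA damage passed with edgeR or DESeq2 on all libraries with the filter on low counts. At an unadjusted p under 0.05 there were 5 of 23 p53 targets, 6 of 20 genes of the integrated stress response, 1 of 14 heat shock genes, 4 of 20 NF-kB targets and 3 of 28 topoisomerases and genes of the DNA damage response, against 12.4% of all genes. All of these but 1 p53 target were higher in the treated cells, as were 1086 of 1916 such genes among all tested. In the same order, both treated libraries lay above both control libraries for 39.1%, 45%, 14.3%, 55% and 17.9%, against 19.4% of all genes. They lay below for 4.35%, 10%, 14.3%, 5% and 0%, against 13.7%. Without control replicate 1 some members of each list passed, but many more of all genes did as well. Without the filter 1 gene each of the integrated stress, heat shock and DNA damage lists passed, among 649 of all 34232 genes. The median log2 fold changes of these lists, in the order of the counts above, were 0.15, 0.18, -0.00, 0.14 and 0.07. MDA-MB-231 carries a mutant p53. CDKN1A, the p53-induced inhibitor of cyclin-dependent kinases, had 25.0 and 17.6 CPM in the control and 26.7 and 27.2 CPM in the treated cells (0.33, adjusted p = 0.397), and MDM2 had 54.9 and 61.7 CPM against 58.8 and 64.2 CPM (0.08, adjusted p = 0.784). TOP2A, which encodes topoisomerase II alpha, had 770 and 955 CPM against 824 and 913 CPM (0.01). CHAC1, a late target of the integrated stress response, had 1.31 and 0.959 CPM against 3.42 and 2.49 CPM (1.37, adjusted p = 0.230).

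Of the other lists, 0 of 23 cholesterol genes, 0 of 17 hypoxia genes, 0 of 29 cell cycle genes and 0 of 24 replication-dependent histone genes passed with edgeR or DESeq2 and the filter, and 5, 2, 4 and 1 had an unadjusted p under 0.05. Without control replicate 1 some members of each list passed, but so did many more of all genes. The medians were 0.10, 0.07, 0.05 and -0.15. Of the 15 genes of the mitochondrial genome 0 passed with edgeR or DESeq2 and the filter (11 at an unadjusted p under 0.05, against 12.4% of all genes). In edgeR without the filter 12 passed, among 649 of all 34232 genes. Without control replicate 1 most of the 15 passed, in a fit where many more of all genes passed as well. Without control replicate 2, MT-ND6 passed, lower in the treated cells (log2 fold change -0.69, adjusted p = 0.0414). Their median was -0.99, and 10 of 15 lay below both control libraries, against 13.7% of all genes. This value moved with control replicate 2: the median was -1.49 without control replicate 1 and -0.20 without control replicate 2. MT-CO1, a subunit of cytochrome oxidase, had 15158 CPM in control replicate 1 and 32778 CPM in replicate 2, against 14217 and 14337 CPM in the treated cells.

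The changes were compared with the other 2 labels of CX-5461 by direct contrasts, whose fold changes do not involve the control, although the control libraries are in the model that gives the p-values. Against CX-5461 labelled 10 min, 137 genes were called (0.888%), 73 higher (0.473%) and 64 lower (0.415%) in the libraries labelled 120 min. This count was lower with any library of either label left out, as given in the last section. Of the 12 genes, 8 passed at any fold, and 3.12% of all genes tested did. The 12 were chosen through the same treated libraries, so these shares cannot be compared. ID2 had 92.3 and 85.6 CPM at the label 10 min, which is above the 16.8 and 17.2 CPM here (log2 difference -2.39; edgeR, adjusted p = 1.1e-06). CCN1 had 94.0 and 90.6 CPM there (log2 difference 2.49), MYC 34.9 and 32.2 CPM (1.88) and MIR222HG 3.18 and 3.61 CPM (1.57), each below its level at the label 120 min. FOS had 9.97 and 9.23 CPM there (-0.98), and SNHG3 23.1 and 19.5 CPM (0.88). For these 6 genes the level at the label 120 min lay between that of the control and that of the label 10 min.

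WDR4 and ENSG00000274422 also differed between these labels, but in the other order. WDR4 had 5.01 and 5.28 CPM at the label 10 min, and its log2 difference was 0.73. ENSG00000274422 had 1.56 and 1.89 CPM there, and its log2 difference was -1.44, so that both genes lay farther from the control at the label 120 min. The difference of ENSG00000274422 did not pass with DESeq2, at an adjusted p of 0.0596 with the filter and 0.0621 without it. For CLK1, GABPB1-AS1, GADD45B and ENSG00000262526 no difference passed the test, with log2 differences of 0.14, 0.12, -0.15 and 0.13 and adjusted p of 0.477, 0.540, 0.416 and 0.747 from edgeR's test.

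Against CX-5461 labelled 30 min, 2 genes were called (0.013%), ID2 and ENSG00000262526, both higher, and 0 were lower (0%) by edgeR. ID2 had 6.72 and 6.42 CPM at the label 30 min, near its control level, and the log2 difference was 1.37 (edgeR, adjusted p = 0.00195). ENSG00000262526 was at 0 there and at least 259-fold higher at the label 120 min. With DESeq2 and the same filter neither was called, because independent filtering left both, among 11365 genes, without an adjusted p (unadjusted p = 6.85e-15 for ID2 and 6.54e-14 for ENSG00000262526), and 3 other genes were called, 1 of them higher. With DESeq2 without a filter both were called (adjusted p = 1.55e-10 and 7.75e-10). The remaining 10 genes did not pass in this contrast, with adjusted p between 0.0883 (CCN1) and 0.240 (MIR222HG) from edgeR's test. With DESeq2 and the same filter 3 of them passed, all lower at the label 120 min: CCN1 (adjusted p = 1.26e-14), SNHG3 (5.25e-06) and MYC (0.000112). For 10 of the 12 genes, all but WDR4 and ENSG00000274422, the mean at the label 30 min was closer to the control than at either other label, as with CCN1 at 92.3, 688 and 519 CPM for the labels 10, 30 and 120 min against 679 CPM in the control.

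**Figure D4:**
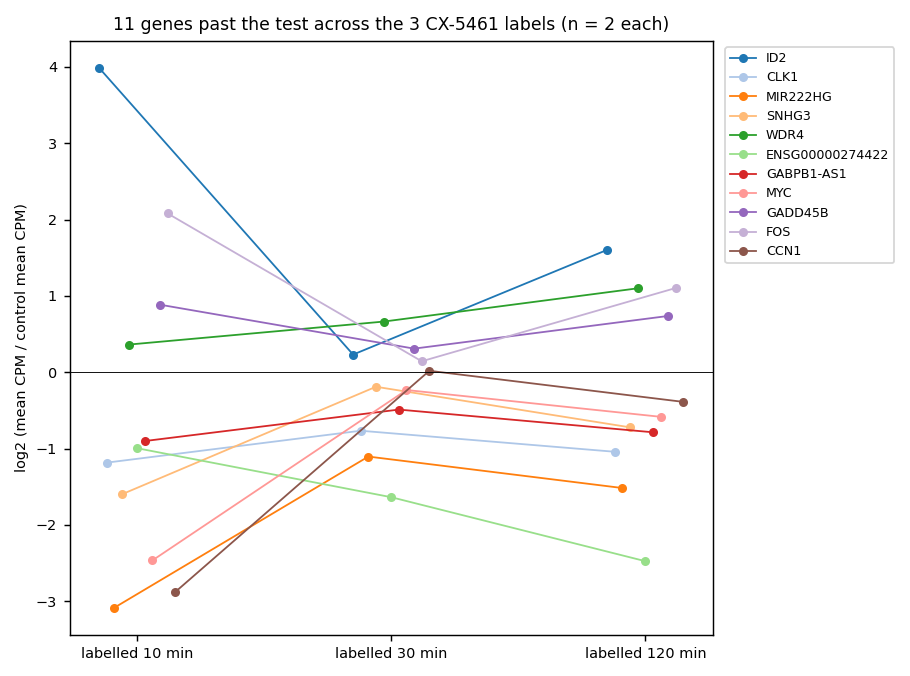
Log2 ratio of the mean CPM (n = 2) to the control mean for 11 genes past the test at the 3 labels of CX-5461, with points shifted sideways for legibility; the control pair is shared by all 3 ratios and the lines only join the values of a gene. ID2, MYC and CCN1 lie farthest from 0 at the label 10 min, and WDR4 and ENSG00000274422 at the label 120 min.

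RBI2 at the same dose and label was the other reference, and 258 genes were called in the direct contrast (1.67%), 62 higher (0.402%) and 196 lower (1.27%) with CX-5461. With DESeq2 and the same filter 145 were called, 49 of them higher. The count fell much further with some libraries left out, as given in the last section. At any fold, 16.1% of the genes tested passed. Of the 12, which were chosen through the same treated libraries, 8 passed, so these shares cannot be compared. With DESeq2 and the same filter 5 of these 8 passed, and the exceptions were WDR4, GADD45B and FOS (adjusted p = 0.0655, 0.0649 and 0.116). ID2 had 4.60 and 5.36 CPM with RBI2, below its level with CX-5461 (log2 difference 1.78; edgeR, adjusted p = 0.000232). GABPB1-AS1 had 45.1 and 46.7 CPM with RBI2 (-1.07) and SNHG3 79.1 and 75.0 CPM (-0.98), both of them above the levels with CX-5461 (adjusted p = 0.0021 each). CCN1 had 746 and 764 CPM with RBI2 (-0.54), and its adjusted p was 0.0035. MYC had 131 and 143 CPM and CLK1 25.9 and 25.4 CPM with RBI2, and neither passed in this contrast (-0.15 and 0.26, adjusted p = 0.195 and 0.115).

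The rule for named genes was filled up with genes that had a large fold change and an unadjusted p under 0.05 but did not pass. RYK, a Wnt receptor of the tyrosine kinase family, had 6.84 and 4.47 CPM in the control and 16.9 and 20.2 CPM in the treated cells, above all 12 other libraries (log2 fold change 1.69; edgeR, adjusted p = 0.0785). With DESeq2 its adjusted p was 6.25e-05, and with an offset for transcript length its log2 fold change was 0.76. The remaining 9 had adjusted p between 0.265 and 0.397 and are BTAF1, the pseudogenes EEF1A1P5, RPL3P4 and DHFRP1, and genes that overlap others on the same strand (ENSG00000125695, ENSG00000285920, ENSG00000272921, ENSG00000257379 and the MATR3 gene ENSG00000280987). With DESeq2 and the same filter 3 of the 9 passed, RPL3P4 (adjusted p = 0.000605), EEF1A1P5 (0.0319) and ENSG00000125695 (0.0460). EEF1A1P5 shows how they vary: it had 91.5 and 13.7 CPM in the control and 1035 and 1807 CPM in the treated cells. Reads of pseudogenes and overlapping genes can be divided differently between near-identical sequences from library to library, which was not tested here.

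The calls depend on the libraries in the model. With only the 4 libraries compared, 0 genes passed with edgeR, 212 passed the unadjusted p with the fold limit, and with DESeq2 on all libraries 89 genes passed at any fold, all 12 among them.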

How the data were processed

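Poly(A) RNA of 14 libraries was sequenced, and the submitters' processing notes name STAR 2.7.6a, SAMtools 1.11, bedtools 2.29.2, Salmon 1.3.0 and DESeq2 1.28.1. The authors removed reads that aligned to the rDNA repeat, so ribosomal RNA itself is not analysed here. They deposited Salmon's estimated counts of reads for each GRCh38 transcript, neither normalized nor rounded. The TPM values of the same Salmon run by the authors came with them. These TPM values served here only to weight transcript lengths within a gene for the transcript length offset. For this report the estimated counts were summed per gene with GENCODE 44, in which 225662 of 228754 transcript identifiers were found, and rounded. The reads of the other 3092, 1.03% to 1.13% of a library, were left out.

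Genes were kept with filterByExpr (minimum count 10) and scaled by TMM in edgeR 4.0.16 (limma 3.58.1, R 4.3.3), and 7 groups entered one model, since 2 libraries a group leave few degrees of freedom. The common coefficient of variation was 12.3%. The quasi-likelihood F test was adjusted by the Benjamini-Hochberg method. A gene passed at an adjusted p under 0.05 and was called if its log2 fold change was also 1 or more in either direction.

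The members, the 23 gene lists and the tests were chosen with earlier results of these data known. The genes named are those called, the 10 largest rises and falls past the test (at least 5 CPM, groups not overlapping, filled up at an unadjusted p), members of lists of at most 25 genes that passed, and GAPDH, MYC, ID2, CCN1 and FOS. Where a group had no reads, a fold was computed against 3 counts in the group, a limit for counting error alone. Alternatives were DESeq2 1.42.0 with and without the filter, DESeq2's size factors, no filter, a transcript length offset, the replicate number as a block, no mitochondrial genes, only the libraries compared, and each library left out in turn.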

Additional observations from a re-analysis of the deposited data

Results flagged for a closer look

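The effect of CX-5461 differed between its labels by the direct contrasts of edgeR's quasi-likelihood test, whose fold changes do not involve the control libraries. Between the labels 120 and 30 min 2 genes were called: ID2, with a log2 difference of 1.37, and ENSG00000262526, at least 259-fold higher at the label 120 min. DESeq2 with the same filter gave neither gene an adjusted p and called 3 others, and without a filter it called both. Between the labels 120 and 10 min 137 genes were called.

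Of the genes past the test against the control, 8 differed between the labels 120 and 10 min with edgeR and, ENSG00000274422 excepted (adjusted p = 0.0596), with DESeq2. The log2 differences (120 minus 10 min) were -2.39 for ID2, -1.44 for ENSG00000274422 and -0.98 for FOS, and 1.57 for MIR222HG, 0.88 for SNHG3, 0.73 for WDR4, 1.88 for MYC and 2.49 for CCN1. The file names carry other times than the labels, 30 for the label 120 min and 10 and 2 for the labels 30 and 10 min. If the token 2 stood for 2 min, the order of exposure would be that of the labels. If it stood for 2 h, the label 10 min would be the longest exposure. Neither the order nor the length of exposure is therefore settled.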

How the results depend on the processing

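The 7 genes called against the control became 36 with DESeq2, 38 with DESeq2 without a filter, 329 in edgeR without a filter, 3 with an offset for transcript length and 0 with only the 4 libraries, and 2 to 611 with a library left out, the highest without control replicate 1. In the same order, the 12 genes past the adjusted p at any fold became 89, 92, 649, 3 and 0, and 2 to 3500, and the 6 members of lists became 20, 21, 47, 1 and 0, and 1 to 186. The 289 genes at an unadjusted p became 926 without a filter and 238 to 937 with a library left out. For the contrasts with the other labels or with RBI2, which follow, only libraries of the groups compared were left out. The 2 genes called against the label 30 min became 3 with DESeq2 (0 shared, since both had no adjusted p there), 8 with DESeq2 without a filter (both shared), 274 without a filter and 8 with only the 4 libraries, and 1 to 4 with a library left out. The 137 against the label 10 min became 418 without a filter, 208 with only the 4 libraries and 48 to 111 with a library left out. The 258 against RBI2 became 145 and 156 with DESeq2 with and without a filter, 592 without a filter, 393 with only the 4 libraries and 5 to 259 with a library left out. The cause was not tested. Against the control, 3 genes were called without CX-5461 labelled 120 min replicate 1, 2 without its replicate 2 and 4 without RBI2 labelled 10 min replicate 2, and without control replicate 2 there were 7, of which 4 were shared. The log2 fold change of GAPDH, -0.02, lay between -0.15 (without control replicate 2) and 0.086 (without control replicate 1) with a library left out, and turned to 0.022 without CX-5461 labelled 120 min replicate 2. DESeq2's size factors and leaving out mitochondrial genes gave 7 genes each, all shared. With the replicate block, 7 genes were called (6 shared), 10 passed at any fold and 4 list members passed. FOS, GADD45B and CCN1 did not pass with it. Same-numbered deviations correlated at 0.35 between the control and the treated pair but at -0.385 to 0.35 over 21 pairs of groups, so the numbers were not read as pairs. With 27 to 97 reads in a pair, ENSG00000274422 is at the edge of what the depth resolves.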
